A study of Homo sapiens with 8 samples.

Results

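The comparison set AZD6738+IR cells against IR cells and asked what an inhibitor of the kinase ATR adds to the transcriptional response to ionizing radiation. It covered every locus of the deposited expression table that carries a gene symbol, keeping the entry with the highest mean where a symbol had several, which gave 9463 named genes of 14645 loci. Of the named genes, 8666 averaged 1 FPKM or more across the 8 libraries and were tested, while the others were left untested. FPKM scales the fragments of a transcript to its length and to the fragments of the whole library. The cells were MCF10A, an immortalised and non-tumorigenic line of human breast epithelium, and the libraries were made from their total RNA after removal of ribosomal RNA. AZD6738+IR cells received 250 nM AZD6738, an ATR inhibitor, and 20 Gy of radiation. IR cells received the solvent DMSO and 20 Gy. AZD6738 cells received 250 nM of the inhibitor and DMSO cells received the solvent, both without radiation. In every group inhibitor or solvent was added 2 h ahead of the irradiation step and treatment went on for 3 days, and each group had 2 libraries, called A and B after their columns. All groups are 1 cell line. Nothing in the labels ties libraries A and B to separate cultures, and the p-values reflect only how far these libraries differ, which may be technical spread.

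ATR is recruited to single-stranded DNA at stalled replication forks and resected breaks, and through the kinase CHK1 it holds cells with damaged or unfinished DNA short of mitosis. Cells that divide with unrepaired DNA can leave nucleic acid in the cytosol, where sensors such as cGAS for DNA and the RIG-I-like receptors for RNA switch on type I and type III interferon genes. Secreted interferon then acts through JAK kinases and STAT factors on a set of antiviral genes, the interferon-stimulated genes. Bulk RNA does not show whether a change came from more cells that express a gene or from more RNA per cell, and these cannot be told apart in any value below.

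AZD6738+IR library B stood apart in its most abundant transcripts. The 4 most abundant loci took 57.1% and 61.4% of the FPKM total in AZD6738+IR A and B, against 56.5% and 56.7% in IR A and B. The median absolute log2 difference between the libraries of a group was 0.09 in AZD6738+IR and 0.05 in IR, while that between the group means was 0.24. The first principal component carried 69.3% of the variance, and on it the libraries took the positions -61.62 and -59.67 in AZD6738+IR, and -16.15 and -15.46 in IR. Without AZD6738+IR B, 6049 loci passed the test, and all 28 tested interferon-stimulated genes were among the higher ones with it and without it. The identity of the line was checked on a list of epithelial markers, of which KRT5, KRT6A, ESR1 and PGR had no matching symbol. The summed level of the 9 matched markers was 4499 and 4211 FPKM in AZD6738+IR, against 2703 and 2719 FPKM in IR. KRT17 made up most of each sum over these markers. Of these markers, 4 rose and 4 fell, with a median log2 change of -0.05 that was -0.09 to -0.02 without single irradiated libraries and 0.01 under quantile normalization, and 2 fell without IR A. Among blood and immune cell markers CD14 and CSF1R had a matching symbol, with summed levels of 17.8 and 16.6 FPKM in AZD6738+IR, against 17.8 and 17.7 FPKM in IR, where CD14 rose by 0.12 and CSF1R fell, and CD14 was not called when AZD6738+IR A, IR A, IR B, AZD6738 A, AZD6738 B, DMSO A or DMSO B was left out alone (adjusted p 0.0681 to 0.176). Of the fibroblast and endothelial markers, DCN and KDR were matched, and DCN rose by 0.23 on the log2 scale to 4.55 and 4.31 FPKM in AZD6738+IR, against 3.59 and 3.67 FPKM in IR. DCN was not called without any 1 of the 4 irradiated libraries (adjusted p 0.0866 to 0.163). KDR stayed under the expression limit.

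Adding the inhibitor to radiation changed the level of about as many named genes as it left uncalled, and the largest changes were rises. Of the 8666 named genes tested, 1767 rose and 2837 fell by limma at a Benjamini-Hochberg adjusted p under 0.05, and 245 of the rises and 68 of the falls were at least 1 on the log2 scale. Over all 12809 loci tested, 19.6% were higher and 31.5% lower, with a median log2 change of -0.07, and these shares are the background for every count below. Levels are given as FPKM in libraries A and B. Log2 changes are AZD6738+IR minus IR of FPKM + 1, a scale that makes changes at low levels look smaller than they are. Rises of 2 or more were found for 82 named genes and falls of that size for 2.

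Interferon genes themselves were among the genes with the largest rises. All 4 with a matching symbol were higher, and in the IR libraries each was under 0.26 FPKM. IFNL1 (chromosome 19, 39296407 to 39298673, GRCh38), a type III interferon that acts mainly on epithelium, was at 77.6 and 69.8 FPKM in the AZD6738+IR libraries, against 0.116 and 0.253 FPKM in the IR libraries. Both AZD6738+IR libraries were far above both IR libraries, and the gene was listed at 0 in all 4 libraries without radiation. Its log2 change was 5.98 (SE 0.08, limma adjusted p = 6.67e-07), the largest rise of any named gene at 5 FPKM or more. IFNL2 and IFNL3, which encode near-identical type III interferons, are uncertain one by one because reads of the 2 genes may be shared. IFNL2 was at 36.3 and 33.2 FPKM in AZD6738+IR, against 0.0698 and 0.203 FPKM in IR. IFNL3 was at 40.4 and 41.4 FPKM in AZD6738+IR, against 0.113 and 0.147 FPKM in IR. Neither gene was above 0 without radiation. IFNB1 (chromosome 9, 21077104 to 21077942), interferon beta of the type I family, was at 9.8 and 10.7 FPKM in AZD6738+IR, against 0.0196 and 0.0776 FPKM in IR. The libraries of both groups were again fully separate, with a log2 change of 3.42 (SE 0.06, adjusted p = 1.61e-06). Summed over the 4 genes, interferon transcripts came to 164 and 155.1 FPKM in AZD6738+IR, against 0.319 and 0.681 FPKM in IR. All 4 passed the expression limit only through the AZD6738+IR libraries, so that they differed follows in part from how they were admitted.

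The listed interferon-stimulated genes that could be tested all rose. All 28 tested of 29 matched members of the list were higher and none lower, with a median log2 change of 3.85 against -0.07 over all loci tested. Their summed level was 9074 and 8758 FPKM in AZD6738+IR, against 1265 and 1257 FPKM in IR. The IR libraries in turn lay above the libraries without radiation, at 795.2 and 841.7 FPKM in AZD6738 and 841.7 and 840.4 FPKM in DMSO. Members that averaged under 1 FPKM over the 6 libraries other than AZD6738+IR, such as HERC5, MX2, RSAD2 and XAF1, were admitted to the test through the AZD6738+IR libraries. Of the 18 members at a mean of 1 FPKM or more over the libraries without radiation, 18 rose with a median of 3.23. APOBEC3G was matched but fell under the limit. IFIT2, OAS2, EIF2AK2, IFI35, IFI44, IFI44L, IFITM1, UBA7, HERC6, USP18, EPSTI1, SAMD9L and PARP14 had no matching symbol and were not analysed under those names. The list was chosen with earlier results of these data known.

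Both lists that make up the interferon-stimulated genes rose, and each holds members of mixed function. Of the IFIT, OAS and other viral RNA effectors all 13 tested rose, with a median of 4.85. Of the small interferon-induced proteins and the ISG15 conjugation pathway all 15 rose, with a median of 3.75. ISG15 (chromosome 1, 1013497 to 1014540), a ubiquitin-like protein, was at 1604 and 1696 FPKM in the AZD6738+IR libraries, against 28.6 and 35.8 FPKM in the IR libraries. That is a 51.3-fold difference (log2 change 5.64, SE 0.16, adjusted p = 7.12e-06), and the groups were far apart. The conjugating enzyme UBE2L6 was at 216 and 202 FPKM in AZD6738+IR, against 9.77 and 9.55 FPKM in IR, and the ISG15 ligase HERC5 was at 22.2 and 24.2 FPKM in AZD6738+IR, against 0.245 and 0.19 FPKM in IR. These enzymes rose together with their substrate. IFI6, a mitochondrial antiviral protein, was at 1691 and 1526 FPKM in AZD6738+IR, against 39.7 and 43.8 FPKM in IR. IFI27, of the same family, was at 331 and 368 FPKM in AZD6738+IR, against 13.9 and 15.1 FPKM in IR. Their groups were separate, with log2 changes of 5.23 and 4.49.

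Among the RNA binders, IFIT1, which recognises RNA with foreign 5' ends, and its partner IFIT3 stood at the top with ISG15 and OASL. IFIT1 was at 565 and 574 FPKM in the AZD6738+IR libraries, against 9.91 and 11.3 FPKM in the IR libraries. IFIT3 was at 644 and 667 FPKM in AZD6738+IR, against 11.5 and 12.9 FPKM in IR. Fold differences were 53.6 and 53.7. OASL, an oligoadenylate synthetase-like protein that promotes RNA sensing, was at 337 and 321 FPKM in AZD6738+IR, against 5.58 and 5.6 FPKM in IR. OAS1, which makes the activator of RNase L, started from a higher level and was at 231 and 227 FPKM in AZD6738+IR, against 17.8 and 18.7 FPKM in IR, a 12.5-fold difference. The GTPases MX1 and MX2 block virus replication. MX1 was at 119.8 and 122 FPKM in AZD6738+IR, against 3.21 and 3.23 FPKM in IR. MX2 was at 39.8 and 37 FPKM in AZD6738+IR, against 0.231 and 0.221 FPKM in IR, and was listed at 0 in both DMSO libraries. RSAD2, or viperin, was at 77.8 and 83.5 FPKM in AZD6738+IR, against 0.672 and 1.11 FPKM in IR, and the membrane tether BST2 was at 140.2 and 159 FPKM in AZD6738+IR, against 3.22 and 3.63 FPKM in IR. In every one of these genes the AZD6738+IR libraries stood above the IR libraries with no overlap, as they did for 30.3% of all loci tested. The smallest rises of the list were those of IFITM3, with a log2 change of 0.83, LGALS3BP, with 1.11, and IFIT5, with 1.19. IFITM3 was already at 658 and 635 FPKM in IR, and IFITM genes resemble each other in sequence.

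**Figure D1:**
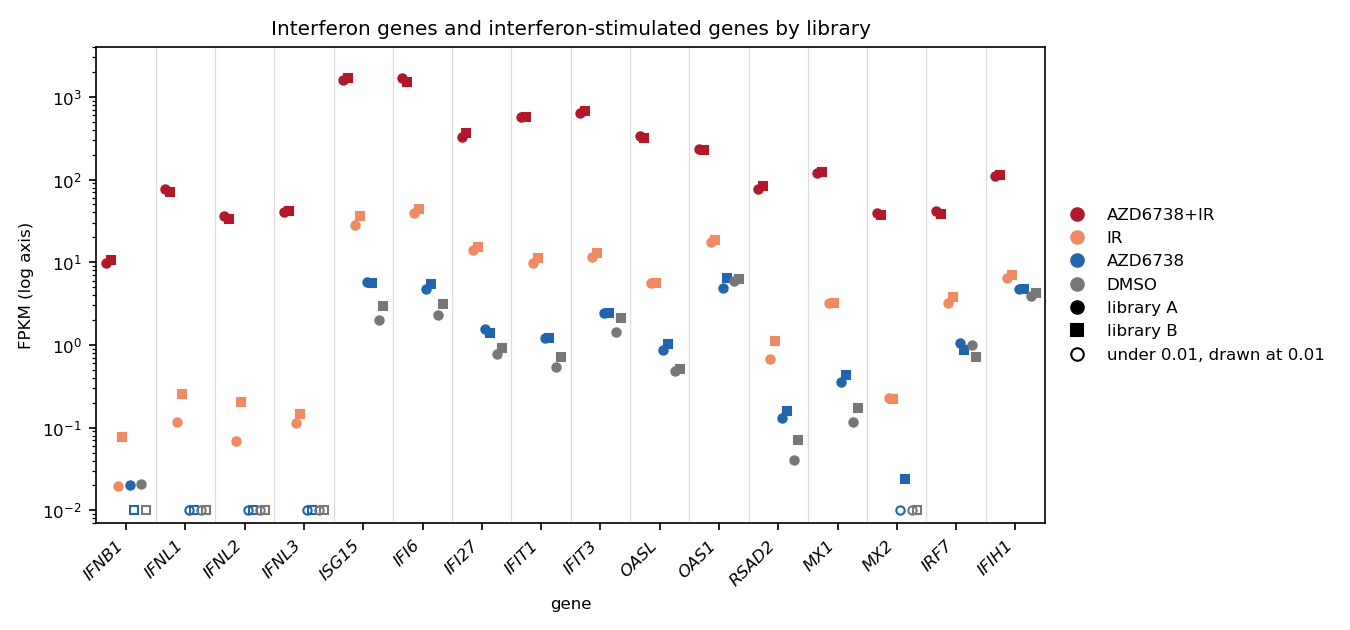
FPKM on a log axis (vertical) of 16 interferon, interferon-stimulated and signalling genes (horizontal) in the 8 libraries. Circles are library A and squares library B, colours are the 4 groups, and open symbols are values under 0.01 FPKM drawn at 0.01. In every gene both AZD6738+IR libraries lie above both IR libraries, from IFNB1 at 9.8 and 10.7 FPKM to ISG15 at 1604 and 1696 FPKM.

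Promoter sequence was compared with the size of the rise, because interferon-activated factors bind a repeat of GAAA. The RefSeq promoters of GRCh38.p14, from 250 bases before to 50 bases after each gene's start, were searched on both strands for GAAA followed by any 2 bases and GAAA again, the core of the interferon-stimulated response element. Overlapping matches were counted separately. Promoters are shown for the 4 interferon-stimulated genes with the largest rises among those whose window held a match. That each of them holds a match therefore follows from how they were chosen. RSAD2, with a log2 change of 5.44, rose more than IFI6, with 5.23, and was left out because its window held none. The sequences run in the direction of transcription, with the matches in capitals.
ISG15: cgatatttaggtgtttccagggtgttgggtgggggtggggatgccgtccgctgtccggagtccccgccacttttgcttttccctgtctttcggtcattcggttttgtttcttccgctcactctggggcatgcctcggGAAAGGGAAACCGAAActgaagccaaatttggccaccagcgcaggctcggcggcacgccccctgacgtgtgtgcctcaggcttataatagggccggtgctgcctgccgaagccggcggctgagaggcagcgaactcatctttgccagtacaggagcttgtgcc
IFIT3: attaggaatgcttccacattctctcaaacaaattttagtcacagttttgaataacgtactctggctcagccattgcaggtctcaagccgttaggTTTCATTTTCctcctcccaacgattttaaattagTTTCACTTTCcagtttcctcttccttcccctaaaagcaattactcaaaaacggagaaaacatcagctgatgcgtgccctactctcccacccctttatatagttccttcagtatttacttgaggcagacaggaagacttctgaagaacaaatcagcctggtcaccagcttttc
IFIT1: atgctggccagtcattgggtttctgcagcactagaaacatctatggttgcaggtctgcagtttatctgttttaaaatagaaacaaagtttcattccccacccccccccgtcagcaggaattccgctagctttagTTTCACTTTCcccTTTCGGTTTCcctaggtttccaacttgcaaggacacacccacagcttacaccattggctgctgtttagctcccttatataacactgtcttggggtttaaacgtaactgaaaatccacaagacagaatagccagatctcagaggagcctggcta
IFI6: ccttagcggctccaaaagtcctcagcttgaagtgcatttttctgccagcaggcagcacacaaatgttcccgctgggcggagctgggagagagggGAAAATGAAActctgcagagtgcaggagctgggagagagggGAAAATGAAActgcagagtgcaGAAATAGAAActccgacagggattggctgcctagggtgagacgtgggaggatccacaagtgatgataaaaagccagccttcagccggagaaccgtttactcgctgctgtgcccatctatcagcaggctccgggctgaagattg
The ISG15 promoter (chromosome 1, 1013247 to 1013546, plus strand) held 2 overlapping matches, the first starting 113 bases before the start site. The IFIT3 promoter (chromosome 10, 89327747 to 89328046, plus strand) and the IFIT1 promoter (chromosome 10, 89392373 to 89392672, plus strand) held 2 each, written there as the reverse complement, TTTC with any 2 bases before the next TTTC. The IFI6 promoter (chromosome 1, 27672143 to 27672442, minus strand) held 3. The share of promoters with a match increased with the size of the rise. It was 63.6% of 33 genes that rose by at least 3 on the log2 scale, 15.6% of 147 that rose by 1 to 3, and 3.53% of 1191 that rose by less. Among genes not called it was 2.19% of 3098, among genes that fell 1.92% of 2292, and 3.65% over all 27305 promoters in the RefSeq file. Of the 25 interferon-stimulated genes with a promoter in the table, 16 held a match, and RSAD2, UBE2L6, XAF1, OAS1 and SAMHD1 were among those without these letters in the window. These shares are a description, since a match is not a measured binding site.

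Of the genes that carry the interferon signal, the transcription factors IRF7 and IRF1 rose and none of the tested receptor chains did. The receptor chain gene IFNLR1 had no matching symbol and was not analysed under that name, nor were STAT2, IRF9, JAK2 and TYK2. The list of interferon signalling genes had 6 higher and 1 lower of 13 tested, with a median log2 change of 0.22 that was 0.13 without AZD6738+IR A. IRF7, the regulatory factor that amplifies type I interferon, was at 41.5 and 37.8 FPKM in the AZD6738+IR libraries, against 3.17 and 3.81 FPKM in the IR libraries, with a log2 change of 3.18 (SE 0.11, adjusted p = 1.74e-05). IRF1, an activator of interferon-induced genes, was at 34.9 and 31.6 FPKM in AZD6738+IR, against 7.72 and 7.49 FPKM in IR. The groups did not overlap in either of these. The kinase JAK1 rose by less, with a log2 change of 0.37, and the feedback inhibitor SOCS3 rose to 4.97 and 4.6 FPKM in AZD6738+IR, against 1.57 and 1.45 FPKM in IR. IRF3, the factor that sensors activate without new synthesis, had a log2 change of 0.22 and was not called when AZD6738+IR A, IR A, IR B, AZD6738 A or AZD6738 B was left out alone (adjusted p 0.0557 to 0.119). Among receptor chains, IFNAR1 fell by 0.29 on the log2 scale, and IFNAR2, IFNGR1, IFNGR2 and IL10RB did not pass the test. IFNAR1 was at 4.49 and 4.87 FPKM in AZD6738+IR, against 5.76 and 6.13 FPKM in IR, with no overlap.

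Several sensors of RNA rose, while the DNA sensor cGAS did not pass the test. In the list of nucleic acid sensing 9 of 13 tested genes rose and RNASEH2B fell, with a median log2 change of 0.77. Listed genes without a matching symbol included RIGI, MAVS, IFI16, AIM2 and TREX1, so neither RNA sensing nor DNA sensing was fully covered. IFIH1 (chromosome 2, 162267074 to 162318684), which encodes the double-stranded RNA sensor MDA5, was at 111 and 113 FPKM in the AZD6738+IR libraries, against 6.47 and 6.93 FPKM in the IR libraries, a 16.7-fold difference (log2 change 3.88, SE 0.05). The endosomal RNA sensor TLR3 was at 36.5 and 36.3 FPKM in AZD6738+IR, against 5.58 and 5.62 FPKM in IR. TRIM25, a ubiquitin ligase of RNA sensing, was at 45.4 and 41.7 FPKM in AZD6738+IR, against 13.9 and 13.5 FPKM in IR. For the DNA arm, MB21D1, the gene of cGAS, was at 7.39 and 8.02 FPKM in AZD6738+IR, against 6.71 and 7.05 FPKM in IR, and these values did not pass the test (log2 change 0.14, adjusted p = 0.0731), although the gene was called without AZD6738+IR A (log2 change 0.20, adjusted p = 0.0436). The adaptor STING, under its older symbol TMEM173, was at 38.7 and 35.5 FPKM in AZD6738+IR, against 15.9 and 16 FPKM in IR. Its groups were separate with a 2.33-fold difference. SAMHD1, a nuclease that limits nucleotides and viral DNA, had a log2 change of 3.40, and ADAR, which edits double-stranded RNA, one of 1.41. Both also belong to the interferon-stimulated genes. RNASEH2B, a subunit of the enzyme that removes RNA from DNA, fell by 0.15 on the log2 scale and was not called without AZD6738+IR A (adjusted p = 0.0671) or without IR B (adjusted p = 0.114), nor under quantile normalization (adjusted p = 0.0501). ZBP1 was at 2.91 FPKM in both AZD6738+IR libraries and under 0.03 FPKM in both IR libraries, and was not tested because its mean stayed under the limit. 

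Most antigen presentation genes rose, and with them both ligands of the checkpoint receptor PD-1. Of 16 tested, 11 rose and none fell, with a median log2 change of 1.36, and 1 fell without AZD6738 A or without AZD6738 B. Of the 12 members at 1 FPKM or more without radiation, 7 rose and none fell, with a median of 1.27. CD274, which encodes the ligand PD-L1 that restrains T cells, was at 10.8 and 10.1 FPKM in the AZD6738+IR libraries, against 0.648 and 0.62 FPKM in the IR libraries. Its log2 change was 2.81 (SE 0.05). The second PD-1 ligand, PDCD1LG2, was at 7.54 and 7.19 FPKM in AZD6738+IR, against 1.07 and 1.11 FPKM in IR. Both ligands averaged under 1 FPKM over the other 6 libraries, so they were admitted to the test through the AZD6738+IR libraries, where they are high. The light chain B2M was at 983 and 1038 FPKM in AZD6738+IR, against 307 and 308 FPKM in IR, a 3.29-fold difference. Class I heavy chains are given with caution, since HLA genes are similar and have several entries in the table. HLA-C was at 156 and 194 FPKM in AZD6738+IR, against 30.5 and 31.3 FPKM in IR, and HLA-B was at 65.4 and 47.2 FPKM in AZD6738+IR, against 7.59 and 5.38 FPKM in IR. No call was made for HLA-E, whose IR libraries were at 14.9 and 2.07 FPKM, and its log2 change was -0.05 without IR B and 2.32 without IR A. 

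Within the proteasome, both subunits of the interferon-induced regulator rose. Of 37 tested subunits, 8 rose and 13 fell, with a median log2 change of -0.08. This balance depended on the scaling, with 12 higher and 10 lower (median -0.03) under quantile normalization and 10 higher and 11 lower (median -0.03) with totals without the 4 most abundant loci, and the median was -0.03 without IR B. PSME2 and PSME1 form the PA28 activator that favours peptides for class I presentation. PSME2 was at 184 and 192 FPKM in AZD6738+IR, against 79.6 and 82.2 FPKM in IR. PSME1 was at 167 and 171 FPKM in AZD6738+IR, against 84.7 and 87 FPKM in IR. The core subunits PSMA6, PSMA4 and PSMA2 rose with log2 changes of 0.82, 0.63 and 0.56. PSMB8 of the immunoproteasome did not pass the test with all libraries (log2 change 0.98, adjusted p = 0.0585) and was called without IR B (log2 change 1.32, adjusted p = 0.0497), without AZD6738 A (log2 change 0.98, adjusted p = 0.0379) and without AZD6738 B (log2 change 0.98, adjusted p = 0.0379), while PSMB9 stayed under the expression limit.

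Several chemokines rose many times over, while CXCL1 and CXCL2 did not pass the test. In the list of chemokines, cytokines and NF-kB targets, 13 of 17 tested genes rose and IL1A fell, with a median log2 change of 0.90. Listed genes without a matching symbol included CXCL5, CXCL6, CXCL8, CXCL11, CCL2, IL1B, TNF, NFKB2, RELB and BIRC3, so the list was not fully covered. Of the 12 members at 1 FPKM or more without radiation, 8 rose and 1 fell, with a median of 0.65. CCL5, which attracts T cells, was at 26.8 and 22.5 FPKM in the AZD6738+IR libraries, against 0.322 and 0.33 FPKM in the IR libraries, and was listed at 0 in all libraries without radiation. CXCL10, a ligand of the receptor CXCR3, was at 56 and 54.4 FPKM in AZD6738+IR, against 2.62 and 2.37 FPKM in IR. Log2 changes were 4.27 (SE 0.08) for CCL5 and 4.01 (SE 0.07) for CXCL10. CCL5 averaged under 1 FPKM over the other 6 libraries and was admitted to the test through the AZD6738+IR libraries, as were TNFSF10 and IL6. CXCL1, which attracts neutrophils, was at 155 and 138 FPKM in AZD6738+IR, against 148 and 141 FPKM in IR. These groups overlapped, with a log2 change of 0.02 (SE 0.07, adjusted p = 0.867). CXCL2 likewise did not pass the test, with a log2 change of 0.00 (SE 0.07). IL1A, an epithelial alarm cytokine, fell to 69.1 and 67.8 FPKM in AZD6738+IR, against 93.3 and 86.7 FPKM in IR. The death ligand TRAIL, TNFSF10, was at 22.8 and 27.2 FPKM in AZD6738+IR, against 0.605 and 1.46 FPKM in IR. IL6 was at 5.21 and 5.11 FPKM in AZD6738+IR, against 0.377 and 0.5 FPKM in IR. Their log2 changes were 3.71 and 2.10. TNFAIP3, or A20, the feedback inhibitor of NF-kB, had a log2 change of 1.24, while the subunit gene NFKB1 did not pass the test (0.08, adjusted p = 0.125).

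Most secreted proteases and their regulators rose, as did most immediate early genes. Of 18 tested genes of proteolysis and secretion, 12 rose and PLAT fell, with a median log2 change of 0.54. The median was 0.91 without AZD6738+IR B, and 2 fell without DMSO A or without DMSO B. Of the 16 members at 1 FPKM or more without radiation, 10 rose and 1 fell, with a median of 0.33. PLAUR, the urokinase receptor, was at 106 and 89 FPKM in AZD6738+IR, against 31.4 and 28.9 FPKM in IR. The collagenase MMP13 was at 4.07 and 4.43 FPKM in AZD6738+IR, against 0.146 and 0.101 FPKM in IR. MMP13 averaged under 1 FPKM over the other 6 libraries and was admitted through the AZD6738+IR libraries. PLAT, the tissue plasminogen activator, went the other way and was at 16.9 and 16.1 FPKM in AZD6738+IR, against 33.5 and 33 FPKM in IR. The binding protein IGFBP6 had a log2 change of 1.59, and GDF15, a stress-induced cytokine, one of 1.33. PLAU, urokinase, rose by 0.30 and was not called when AZD6738+IR A, IR B, AZD6738 A, AZD6738 B, DMSO A or DMSO B was left out alone (adjusted p 0.054 to 0.143). Of 13 immediate early genes 9 rose and DUSP6 fell, with a median of 0.58, and 2 fell without AZD6738+IR B. KLF6, KLF4, EGR1 and JUN encode early response transcription factors, and their log2 changes were 1.41, 1.09, 1.06 and 1.01. DUSP6, a phosphatase that is induced by and limits ERK signalling, fell to 41.9 and 39.7 FPKM in AZD6738+IR, against 65.8 and 63.9 FPKM in IR.

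**Figure D2:**
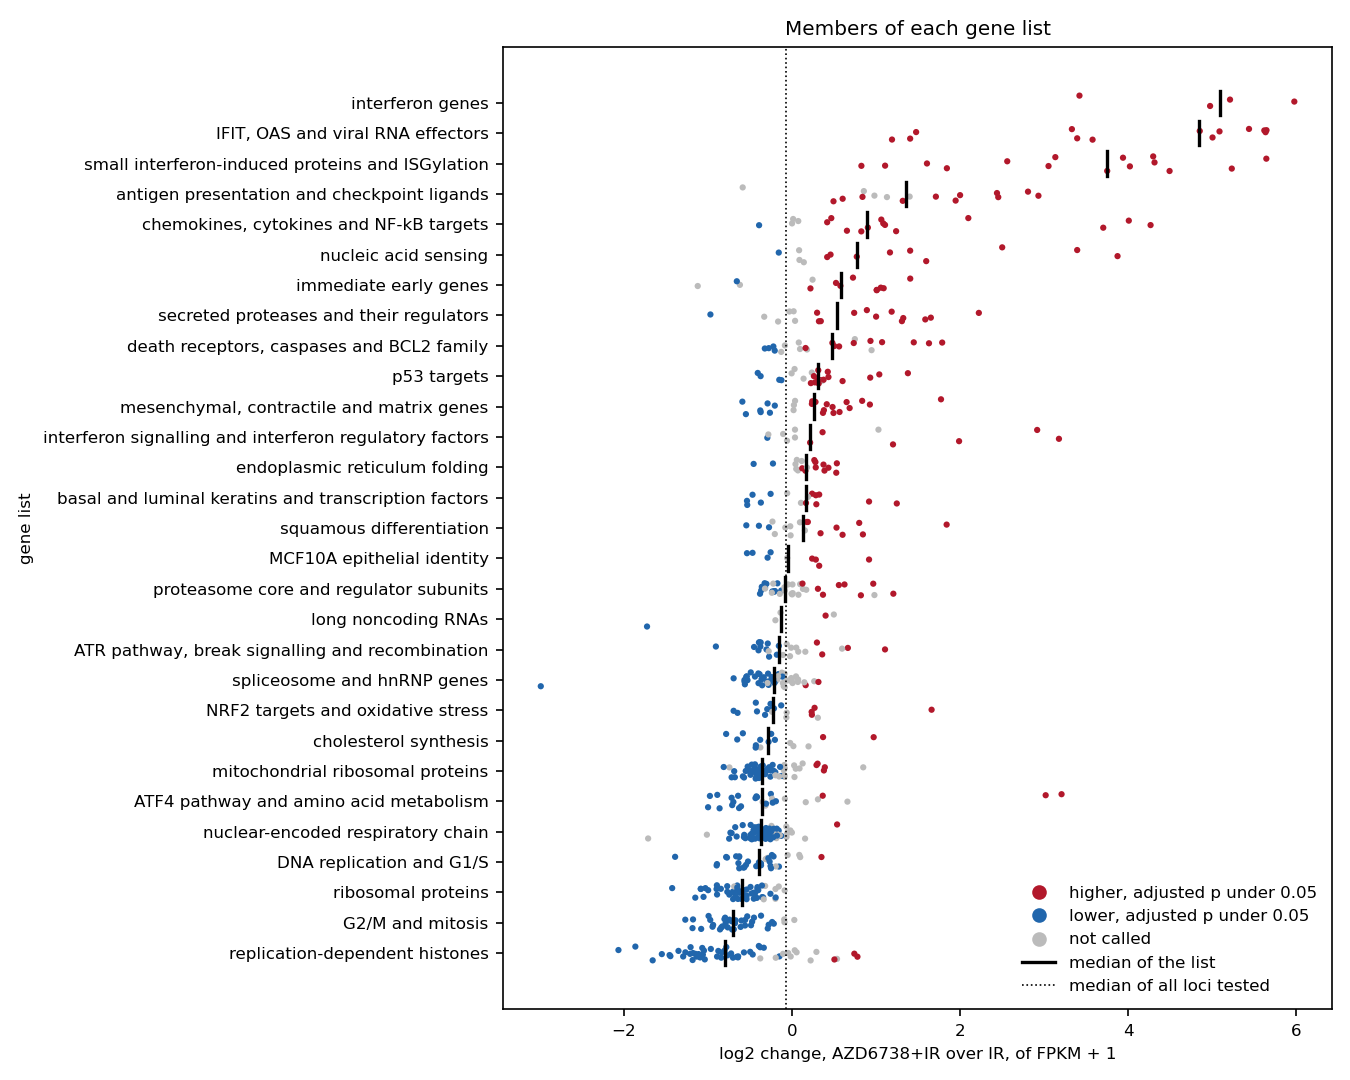
Log2 change of AZD6738+IR over IR (horizontal, of FPKM + 1) for the tested members of the gene lists with at least 3 tested members (vertical). Red points passed the test as higher, blue as lower and grey did not pass, black bars are list medians and the dotted line is the median of all loci tested, -0.07. The interferon lists lie at the top, with medians of 5.09, 4.85 and 3.75, and the histone and mitosis lists at the bottom, with -0.80 and -0.70.

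More targets of p53 rose than fell. Of 23 tested, 14 rose and 4 fell, with a median log2 change of 0.31, and 2 fell without IR A, without IR B or under quantile normalization. CDKN1A, the p21 inhibitor of cyclin-dependent kinases, was at 495 and 427 FPKM in the AZD6738+IR libraries, against 309.7 and 294 FPKM in the IR libraries, a 1.53-fold difference (log2 change 0.60, SE 0.07, adjusted p = 0.00124). The p53 ubiquitin ligase MDM2 was at 126 and 129.5 FPKM in AZD6738+IR, against 99.5 and 100.3 FPKM in IR. Both groups were separate in each gene. The larger rises were those of GADD45B with 1.38, GADD45A with 1.04 and BBC3, the death activator PUMA, with 0.93. Among the members that fell were TP53I3, TIGAR and FDXR. TIGAR was not called when AZD6738+IR A, IR A, IR B, AZD6738 A, AZD6738 B, DMSO A or DMSO B was left out alone (adjusted p 0.0587 to 0.158). FDXR was not called without AZD6738+IR B (adjusted p = 0.0644), without IR A (adjusted p = 0.0659) or without IR B (adjusted p = 0.103). BAX did not pass the test. RRM2B was at 26.7 and 10.7 FPKM in AZD6738+IR and 7.95 and 20.8 FPKM in IR, and the groups overlapped.

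Cell death genes that rose included effectors of necroptosis and pyroptosis. Of 21 tested genes, 10 rose and 4 fell, with a median log2 change of 0.48, and 2 fell without IR A or without IR B. MLKL, the pore-forming effector of necroptosis, was at 26.7 and 25.2 FPKM in the AZD6738+IR libraries, against 7.13 and 6.48 FPKM in the IR libraries. GSDMD, the pore-forming gasdermin D, was at 4.49 and 6.35 FPKM in AZD6738+IR, against 1.03 and 1.06 FPKM in IR. Neither of these overlapped between groups, and their log2 changes were 1.79 and 1.63. CFLAR, an inhibitor of caspase 8, rose as well, with 1.07, as did CASP10, with 0.94, which averaged under 1 FPKM over the other 6 libraries. BCL2L2, BID, CASP2 and CASP6 fell, the largest of these falls being 0.32 on the log2 scale. BID was not called without IR A (adjusted p = 0.0586) or without IR B (adjusted p = 0.0589). CASP6 was not called without AZD6738+IR B (adjusted p = 0.0945), without IR A (adjusted p = 0.0881) or without IR B (adjusted p = 0.103).

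Genes of the dividing cell were lower with the inhibitor. Of 38 tested genes of G2/M and mitosis none rose and 35 fell, with a median log2 change of -0.70. TOP2A, the topoisomerase that untangles chromosomes, was at 3.62 and 3.8 FPKM in the AZD6738+IR libraries, against 9.41 and 9.97 FPKM in the IR libraries. CENPF, a kinetochore protein, was at 2.85 and 3.18 FPKM in AZD6738+IR, against 7.59 and 8.54 FPKM in IR, and the transcription factor MYBL2 was at 1.93 and 1.72 FPKM in AZD6738+IR, against 5.5 and 6.11 FPKM in IR. All 3 were separate between groups, with levels 2.61, 2.68 and 3.18 times lower in AZD6738+IR. Over all loci, both AZD6738+IR libraries were below both IR libraries at 45.9%. CCNB1, the mitotic cyclin B1, was at 6.9 and 6.23 FPKM in AZD6738+IR, against 11.7 and 11.6 FPKM in IR, and MKI67 was at 1.38 and 1.36 FPKM in AZD6738+IR, against 3.1 and 3.31 FPKM in IR. In the libraries without radiation these levels were higher in both groups, at 6.24 and 6.29 FPKM in AZD6738, against 7.43 and 6.37 FPKM in DMSO for MKI67. The phosphatase CDC25B, ECT2 and CKS2 were the members that did not pass the test. ECT2 was called without IR A (log2 change -0.17, adjusted p = 0.0447). CKS2 was called without IR A (log2 change -0.21, adjusted p = 0.0212). LMNB1, lamin B1 of the nuclear envelope, fell by 0.79 on the log2 scale.

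Most replication genes fell. The list of replication and G1/S had 33 tested genes, of which 26 fell and POLA2 rose, with a median of -0.39. RRM2, the regulated subunit of ribonucleotide reductase, was at 3.06 and 3.28 FPKM in the AZD6738+IR libraries, against 9.71 and 10.1 FPKM in the IR libraries. That is a 3.13-fold lower level (log2 change -1.39, SE 0.05, adjusted p = 2.37e-05), and RRM2 was at 10.1 and 10.5 FPKM in AZD6738, against 11.4 and 10.6 FPKM in DMSO, close to the levels in IR. The licensing factor CDC6 and the replicative helicase subunit GINS2 fell by 0.77 and 0.89 on the log2 scale. UHRF1, a reader of newly replicated DNA, fell by 0.78. PCNA, the sliding clamp and a p53 target, did not pass the test (log2 change -0.05, adjusted p = 0.383). The single call higher, POLA2, had a log2 change of 0.35 and was not called without AZD6738+IR A (adjusted p = 0.0862), without IR A (adjusted p = 0.0535) or without IR B (adjusted p = 0.103).

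Replication-dependent histone genes had the lowest median of the 31 gene lists. Of 55 tested, 42 fell and 3 rose, with a median of -0.80. HIST1H1B, a linker histone of S phase, was at 4.03 and 3.58 FPKM in the AZD6738+IR libraries, against 17.7 and 20.4 FPKM in the IR libraries. Its groups were far apart, a 5.02-fold difference (log2 change -2.06, SE 0.09). HIST1H3G was at 3.74 and 4.93 FPKM in AZD6738+IR, against 17.6 and 19 FPKM in IR, and HIST1H2AI was at 11.4 and 11.3 FPKM in AZD6738+IR, against 37.1 and 38.7 FPKM in IR. The genes that rose were HIST2H2AA3, HIST2H2AA4 and HIST3H2BB, and HIST2H2AA3 was at 223 and 225 FPKM in AZD6738+IR, against 132 and 135 FPKM in IR. Histone genes are near-identical and HIST2H2AA3 and HIST2H2AA4 are copies of each other, so single members are uncertain. Most of these transcripts lack a poly(A) tail, and the libraries were made from total RNA.

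The target pathway itself moved in both directions. In the list of the ATR pathway, break signalling and recombination, 4 of 25 tested genes rose and 12 fell, with a median of -0.15. ATR, the kinase that AZD6738 inhibits, was at 5.51 and 5.72 FPKM in the AZD6738+IR libraries, against 8.12 and 7.94 FPKM in the IR libraries. The libraries did not overlap, and the fall was 0.45 on the log2 scale (SE 0.04, adjusted p = 0.000521). Its effector kinase CHEK1 was at 1.63 and 1.63 FPKM in AZD6738+IR, against 2.07 and 2.27 FPKM in IR, and was not called without IR B (adjusted p = 0.0573). PRKDC, the catalytic subunit of DNA-PK in end joining, was at 16.9 and 16.5 FPKM in AZD6738+IR, against 31.9 and 32.2 FPKM in IR, the largest fall of the list with a log2 change of -0.90. Its DNA-end binding partners XRCC5 and XRCC6, the Ku subunits, fell by 0.37 and 0.29. RAD9A, part of the clamp that activates ATR, was at 3.6 and 3.04 FPKM in AZD6738+IR, against 1.03 and 0.97 FPKM in IR, and NBN of the break-sensing MRN complex was at 16.3 and 17.6 FPKM in AZD6738+IR, against 10.3 and 10.3 FPKM in IR. The other rises were those of ATRIP, the partner of ATR, with 0.30, and WEE1, the kinase that holds CDK1 inactive, with 0.36. ATRIP was not called without IR A (adjusted p = 0.0844) or without IR B (adjusted p = 0.053). An inhibitor acts on kinase activity, which RNA levels do not measure.

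Most genes of the ribosome fell. Of 56 tested ribosomal protein genes, 49 fell and none rose, with a median of -0.59. Under quantile normalization 40 fell and 1 rose, with a median of -0.38, and 1 rose without IR A. RPL3 was at 226 and 217 FPKM in the AZD6738+IR libraries, against 583 and 608 FPKM in the IR libraries, a 2.69-fold difference (log2 change -1.42, SE 0.04, adjusted p = 5.89e-06). RPL5 was at 353 and 326 FPKM in AZD6738+IR, against 728 and 710.2 FPKM in IR, and RPS3A was at 44.8 and 44.6 FPKM in AZD6738+IR, against 97.5 and 103 FPKM in IR. Both groups were separate in each of them. Ribosomal protein genes have many processed pseudogenes, and the sources used here do not say how shared reads were assigned. Mitochondrial ribosomal proteins had 44 lower and 4 higher of 63 tested, with a median of -0.35, and MRPL3 was at 31.9 and 32 FPKM in AZD6738+IR, against 57.4 and 56.3 FPKM in IR. Respiratory chain subunits encoded in the nucleus had 51 lower and 1 higher of 67, with a median of -0.37, and 2 higher without IR A. ATP5G1, a subunit of ATP synthase, fell by 0.75 and COX7A2L, which joins respiratory complexes, by 0.73 on the log2 scale. Spliceosome and hnRNP genes had 28 lower and 2 higher of 49, with a median of -0.21, with 17 lower without IR B, 1 higher without AZD6738+IR B and none higher without IR A or without IR B. HNRNPA1 fell by 0.69 and SRSF1 by 0.56. PRPF8 had the most negative log2 change of the named genes, but its libraries were at 0.305 and 0.527 FPKM in AZD6738+IR, against 13.5 and 7.63 FPKM in IR, and at 13 and 1.19 FPKM in AZD6738, against 4.71 and 3.81 FPKM in DMSO, so its level swung within groups. It was not called without any 1 of the 4 irradiated libraries (adjusted p 0.0641 to 0.116). Among long noncoding RNAs MALAT1, a nuclear RNA of splicing bodies, was at 178 and 190.3 FPKM in AZD6738+IR, against 548 and 677 FPKM in IR. Of 5 tested in that list it was the 1 that fell, and LINC-PINT was the 1 that rose, while 2 fell without AZD6738+IR A.

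**Figure D3:**
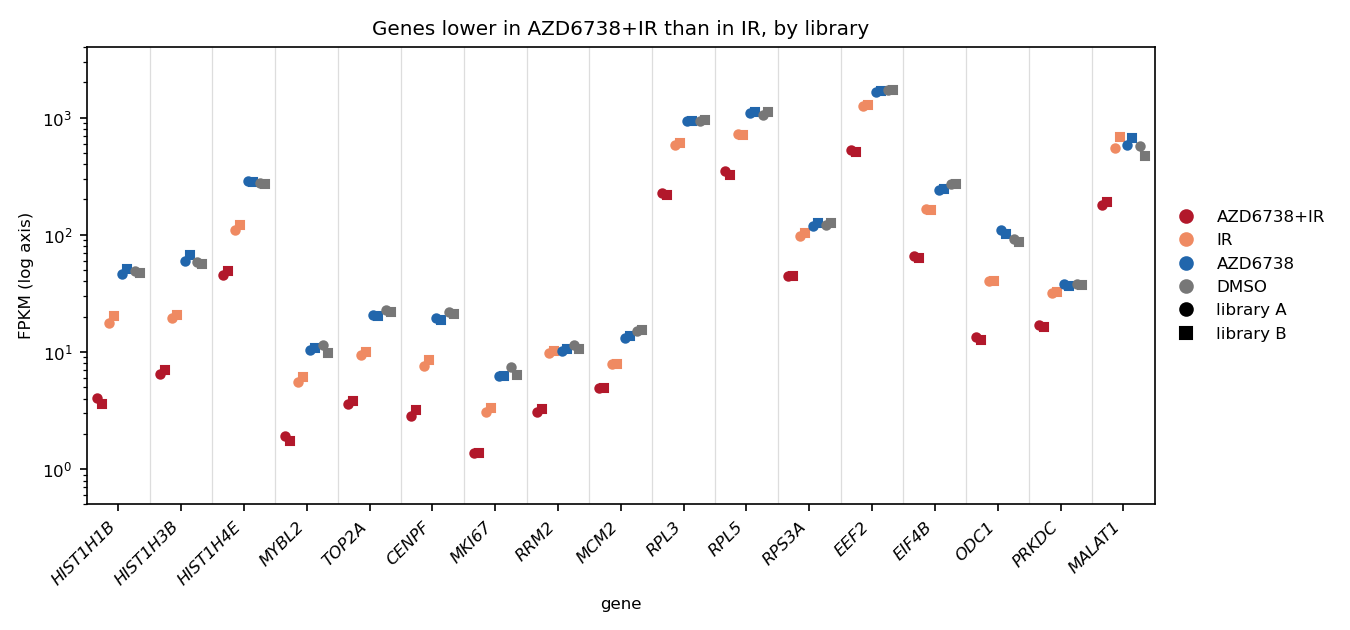
FPKM on a log axis (vertical) of 17 genes that were lower in AZD6738+IR than in IR (horizontal), in the 8 libraries, with library A as circles, library B as squares and groups in colour. For each gene both AZD6738+IR libraries lie below both IR libraries, for example RPL3 at 226 and 217 FPKM in AZD6738+IR and 583 and 608 FPKM in IR.

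Genes of the amino acid response driven by the factor ATF4 were mostly lower, and 2 members went strongly against the list. Of 27 tested genes, 17 fell and 3 rose, with a median of -0.35. PSAT1, an enzyme of serine synthesis, was at 8.29 and 8.54 FPKM in the AZD6738+IR libraries, against 18.9 and 16.2 FPKM in the IR libraries. The glutamine carrier SLC1A5 was at 22.3 and 20.1 FPKM in AZD6738+IR, against 44 and 42.6 FPKM in IR, and the translation repressor EIF4EBP1 was at 20.9 and 19 FPKM in AZD6738+IR, against 40.7 and 34.8 FPKM in IR. All 3 were separate between groups, with levels 2.08, 2.04 and 1.89 times lower in AZD6738+IR. ATF4 fell by 0.25 on the log2 scale. ASNS, asparagine synthetase, did not pass the test with all libraries (adjusted p = 0.0633) and was called without IR B (log2 change -0.53, adjusted p = 0.0116), with 8.34 and 7.24 FPKM in AZD6738+IR, against 11.7 and 8.84 FPKM in IR. WARS, the tryptophanyl-tRNA synthetase that interferon is also known to induce, was at 205 and 243 FPKM in AZD6738+IR, against 27.7 and 25.5 FPKM in IR. The synthetases GARS, SARS and AARS of the same list fell, by 0.63, 0.43 and 0.31 on the log2 scale. AARS was not called without AZD6738+IR B (adjusted p = 0.0543) or without IR A (adjusted p = 0.0686). ATF3, a stress factor of several pathways, was at 33 and 35.5 FPKM in AZD6738+IR, against 3.05 and 2.58 FPKM in IR, and SLC6A9, a glycine carrier, rose by 0.37 and was not called without AZD6738+IR A (adjusted p = 0.0547) or without IR B (adjusted p = 0.0677). The site TGATGNAA, which ATF4 dimers bind, lay in 23.8% of the 21 list promoters in the table and in 3.67% of all promoters, with both strands searched. Among named genes tested the share was 1.7%, among those that fell 1.83% and among those not called 1.39%. It was 6.06% of 33 genes that rose by at least 3, 2.72% of 147 that rose by 1 to 3, and 2.02% of 1191 that rose by less. These shares are a description, and a link of the site to the falls was not tested.

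Other metabolic and stress lists moved in both directions. Of 15 genes of cholesterol synthesis, 2 rose and 9 fell, with a median of -0.28. It was 1 that rose when either AZD6738+IR library, IR B or either AZD6738 library was left out, and the median was -0.18 without AZD6738+IR B. FDPS, which makes farnesyl diphosphate, was at 250.4 and 251 FPKM in AZD6738+IR, against 389 and 398 FPKM in IR, and MVK, mevalonate kinase, fell by 0.78, whereas STARD4, a sterol carrier, was at 10.2 and 10.2 FPKM in AZD6738+IR, against 4.68 and 4.71 FPKM in IR. Of 18 NRF2 targets, 4 rose and 10 fell, with a median of -0.22. Under quantile normalization 5 rose and 7 fell, with a median of -0.10, while 6 fell without IR B and 2 rose without AZD6738+IR B. HMOX1, the haem oxygenase, was at 7.55 and 6.31 FPKM in AZD6738+IR, against 1.49 and 1.51 FPKM in IR, in contrast to CAT, catalase, which fell by 0.65. Of 18 genes of folding in the endoplasmic reticulum, 10 rose and 2 fell, with a median of 0.17, and 5 rose without IR B. HERPUD1, of protein disposal, had a log2 change of 0.54, and the chaperone HSPA5 one of 0.28. HSPA5 was not called without AZD6738+IR B (adjusted p = 0.0634), without IR A (adjusted p = 0.0526) or without IR B (adjusted p = 0.0858).

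Epithelial genes moved in both directions. Of 15 keratins, surface proteins and transcription factors of basal and luminal cells, 7 rose and 5 fell, with a median of 0.17 that was 0.27 under quantile normalization, and 3 fell without IR A or without IR B. KRT8, a luminal keratin, was at 336 and 310.2 FPKM in the AZD6738+IR libraries, against 135 and 135 FPKM in the IR libraries, and the basal keratin KRT17 was at 3360 and 3112 FPKM in AZD6738+IR, against 1710 and 1709 FPKM in IR. TP63, the master factor of basal epithelium, was at 5.27 and 4.7 FPKM in AZD6738+IR, against 7.98 and 7.32 FPKM in IR, and ITGA6 and CD44 fell by 0.47 and 0.53 on the log2 scale. The groups were separate in all of these. Of 18 tested genes of squamous differentiation, 8 rose and 3 fell, with a median of 0.13, and 5 rose without AZD6738+IR A (median 0.07) or without IR B (median 0.03), while 1 fell without IR A. LCN2, an iron-trapping antimicrobial protein, was at 122 and 109.9 FPKM in AZD6738+IR, against 34.1 and 29.3 FPKM in IR. S100A7, or psoriasin, was at 156 and 152 FPKM in AZD6738+IR, against 185 and 142 FPKM in IR, where the libraries overlapped. Its log2 change was -0.08 (SE 0.20, adjusted p = 0.778), and its sign turned under quantile normalization and without IR A. S100A8 did not pass the test either (adjusted p = 0.141). Of 24 tested mesenchymal, contractile and matrix genes, 14 rose and 7 fell, with a median of 0.26. FN1, fibronectin, was at 12 and 11.7 FPKM in AZD6738+IR, against 2.82 and 2.68 FPKM in IR, the largest rise of that list, and VIM, vimentin, fell by 0.29 on the log2 scale and was not called without IR A (adjusted p = 0.0503).

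To see whether radiation was needed, the effect of AZD6738 in irradiated cells was set beside its effect in cells without radiation. Of 12809 loci, 6546, or 51.1%, passed the test in AZD6738+IR against IR, and 19, or 0.148%, in AZD6738 against DMSO, of which 0.0937% were higher and 0.0546% lower, with 1758 at an unadjusted p under 0.05 in the second comparison. The difference between the effects, tested as the interaction of inhibitor and radiation, passed at 4542 loci, or 35.5%, with 1673, or 13.1%, positive and 2869, or 22.4%, negative. All 28 tested interferon-stimulated genes were positive in it, and none was called in AZD6738 against DMSO, where their median log2 change was 0.09. Of these genes, 18 averaged 1 FPKM or more in the libraries without radiation. The others were under that level there, where a change of FPKM + 1 stays close to 0. For them the missing call in AZD6738 against DMSO and the positive interaction were in part fixed in advance. ISG15 was at 5.83 and 5.63 FPKM in AZD6738, against 1.99 and 2.98 FPKM in DMSO, a log2 difference of 0.96 (adjusted p = 0.121). Its interaction was 4.68 (adjusted p = 0.000109). For CXCL10 the interaction was 3.90 and for CD274 2.71. CD274 was under 1 FPKM in every library without radiation, so its positive interaction too was in part fixed in advance. On this scale changes at low levels are understated in the interaction too. HIST1H1B, at 46.2 and 51 FPKM in AZD6738, against 49.5 and 47.5 FPKM in DMSO, had an interaction of -2.06, and RPL3, at 927 and 936 FPKM in AZD6738, against 936 and 946 FPKM in DMSO, one of -1.41. For CDKN1A the log2 change with the inhibitor was 0.60 with radiation and 0.54 without it, where it did not pass the test (adjusted p = 0.0964), and the interaction did not pass either (adjusted p = 0.674). For MDM2 the changes were 0.35 with radiation and 0.27 without it, which did not pass (adjusted p = 0.0679), nor did the interaction (adjusted p = 0.208).

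Few named genes were called for the inhibitor alone, and their values in irradiated cells differed from gene to gene. There were 13 such genes, and 10 of them were also called in irradiated cells, which is 76.9% of the first set and 0.217% of the second. Over all loci tested, 51.1% were called in irradiated cells. The direction was the same in 5 of the 10 genes. LRRC37BP1, a pseudogene transcript, was at 1.52 and 1.37 FPKM in AZD6738+IR, against 8.12 and 8.81 FPKM in IR, and at 2.64 and 3.02 FPKM in AZD6738, against 12.5 and 13.8 FPKM in DMSO. It was lower with the inhibitor in both settings, and its interaction did not pass the test (adjusted p = 0.673). IGFL1, a secreted protein of the insulin-like growth factor family, was at 117 and 109 FPKM in AZD6738+IR, against 74.2 and 70.4 FPKM in IR, and at 6.98 and 6.88 FPKM in AZD6738, against 4.26 and 4.21 FPKM in DMSO. SLC38A2, an amino acid carrier, was lower with the inhibitor in irradiated cells, with 81.9 and 83.7 FPKM in AZD6738+IR, against 93.7 and 95.5 FPKM in IR, and higher without radiation, with 91.3 and 94.2 FPKM in AZD6738, against 60.0 and 56.9 FPKM in DMSO. The fall in irradiated cells was not called without IR B (adjusted p = 0.0601). MCFD2 was at 7.18 and 8.06 FPKM in AZD6738, against 35.1 and 34 FPKM in DMSO, and at 30.4 and 29.3 FPKM in AZD6738+IR, against 31.5 and 31.9 FPKM in IR. TAPBP was at 6.77 and 6.36 FPKM in AZD6738+IR, against 3.25 and 3.19 FPKM in IR, and was listed at 0 in both DMSO libraries, so no fold without radiation is given.

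**Figure D4:**
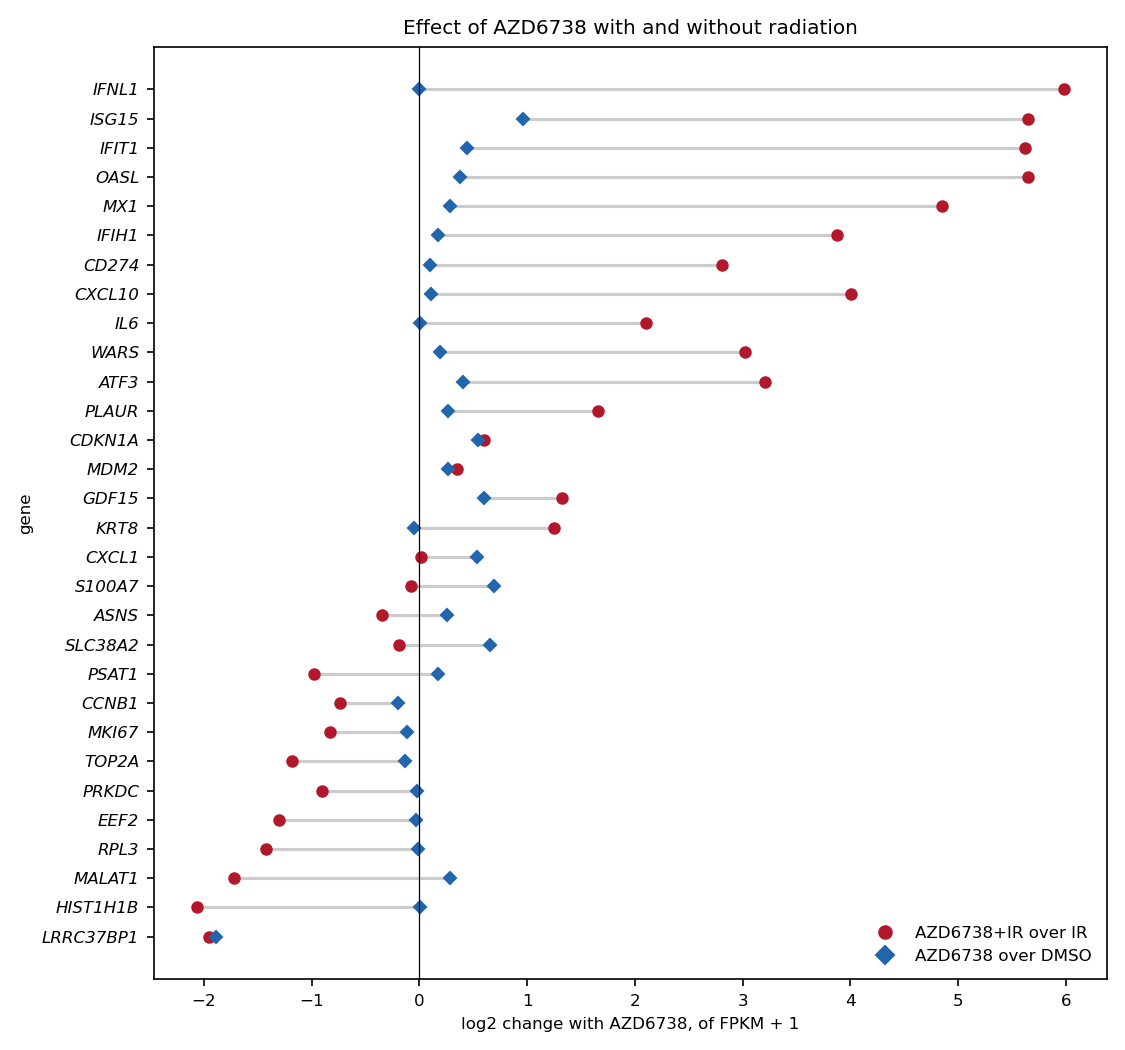
Log2 change with AZD6738 (horizontal, of FPKM + 1) of 30 genes (vertical), as AZD6738+IR over IR (circles) and AZD6738 over DMSO (diamonds), joined by a line for each gene. The interferon gene IFNL1 has a change of 5.98 in the irradiated comparison. In the other comparison its change is 0 because the gene was listed at 0 in every library without radiation. The symbols of CDKN1A, MDM2 and LRRC37BP1 lie close together.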

How the data were processed

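Of 8 total RNA libraries, 2 in each group, each library was placed by the treatment in its label. The submitters' processing notes name HISAT2 2.0.4, StringTie 1.3.4d, FastQC and the build hg38 without roles or settings. The 1 filtered table deposited by the authors has no unit in its header and is taken here as FPKM because its values are fractional and the column totals differ. TPM cannot be told apart, and depth and counting error are unknown. The deposited p-values were not used. Whether a value is that of the locus or of its 1 listed transcript is not stated. The table held 14944 entries, 217 symbols had several, and 299 entries were left out. Coordinates are those of RefSeq, GRCh38.p14. A linear model of log2(FPKM + 1) with a mean for every group and a variance trend was fitted to all 8 libraries (limma 3.58.1, R 4.3.3), over loci that averaged 1 FPKM or more, leaving 4 residual and 1.79 prior degrees of freedom. Tests were two-sided with Benjamini-Hochberg adjustment over 12809 loci, and the fit was tested on simulated data. The members and 31 gene lists were chosen with earlier results of these data known. Genes to name were the 12 largest rises and falls at 5 FPKM or more with separate libraries, as many as 5 called members per list, and 31 sentinels found of 32, 160 genes in all. Results for some genes are not reported here. Further list members, and the genes called for the inhibitor alone, were named after their values were seen. Of the list genes, 190 had no matching symbol and were not analysed under their names. Alternatives covered the filter, pseudocount, scaling, variance trend, libraries in the fit and entries of a symbol.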

Additional observations from a re-analysis of the deposited data

Results flagged for a closer look

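The effect of AZD6738 differed between irradiated and non-irradiated cells at 4542 of 12809 loci by the limma interaction test, which takes the log2 change of AZD6738+IR over IR minus that of AZD6738 over DMSO. Among the genes named in the text, those of the other observations included, the values that passed at an adjusted p under 0.05 are given here. A positive value is a change that was more positive in irradiated cells. IFNL1, IFNL2, IFNL3, IFNB1, RSAD2, MX2, CCL5, HERC5, XAF1, TNFSF10, APOL1, CD274, MMP13, IL6, PDCD1LG2 and CASP10 averaged under 1 FPKM outside the AZD6738+IR libraries. These genes were admitted to the test through the AZD6738+IR libraries. Without radiation their change of FPKM + 1 stays close to 0, so their positive difference was in part fixed in advance. The genes with the most positive differences had 5.98 for IFNL1, 5.34 for IFIT3, 5.32 for RSAD2, 5.27 for OASL, 5.21 for IFNL3, 5.18 for IFIT1, 4.99 for MX2, 4.98 for IFNL2, 4.68 for ISG15, 4.67 for BST2, 4.57 for MX1 and 4.51 for IFI6. Next in order were 4.27 for CCL5, 4.23 for UBE2L6, 4.19 for HERC5, 4.07 for IFI27, 4.02 for XAF1, 3.98 for GBP1, 3.90 for CXCL10, 3.76 for TNFSF10, 3.70 for IFIH1, 3.67 for OAS1, 3.48 for APOL1 and 3.42 for IFNB1. After these came 3.30 for HLA-B, 3.29 for SAMHD1, 3.10 for IRF7, 2.83 for WARS, 2.80 for ATF3, 2.71 for CD274, 2.52 for TRIM21, 2.50 for TLR3, 2.42 for HLA-C, 2.22 for MMP13, 2.10 for IL6 and 2.08 for IRF1. Lower positive differences were 1.98 for PDCD1LG2, 1.96 for MCFD2, 1.81 for B2M, 1.75 for MLKL, 1.71 for HMOX1, 1.69 for FN1, 1.66 for GSDMD, 1.64 for PSMB8, 1.54 for LCN2, 1.52 for IGFBP6, 1.41 for TRIM25 and 1.40 for ADAR. Further down the order stood 1.39 for PLAUR, 1.36 for RAD9A, 1.30 for KRT8, 1.29 for GADD45B, 1.19 for TMEM173, 1.17 for PSME2, 1.16 for KLF6, 1.15 for LGALS3BP, 1.15 for SOCS3, 1.12 for TNFAIP3, 1.11 for EGR1 and 1.10 for IFIT5. The genes that followed had 1.03 for CFLAR, 0.95 for CASP10, 0.95 for BBC3, 0.93 for PSME1, 0.89 for IFITM3, 0.86 for JUN, 0.83 for KLF4, 0.73 for GDF15, 0.67 for PSMA6, 0.66 for KRT17, 0.60 for NBN and 0.59 for PSMA2. The remaining positive values were 0.58 for HIST2H2AA4, 0.57 for HIST2H2AA3, 0.55 for DCN, 0.54 for GADD45A, 0.49 for PSMA4, 0.49 for POLA2, 0.43 for WEE1, 0.38 for CD14, 0.37 for ATRIP and 0.26 for JAK1.

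Among negative differences, the most extreme were -2.06 for HIST1H1B, -2.01 for MALAT1, -2.00 for HIST1H3G, -1.72 for HIST1H2AI, -1.41 for RPL3, -1.30 for RRM2, -1.27 for MYBL2, -1.27 for EEF2, -1.15 for PSAT1, -1.14 for RPS3A, -1.11 for RPL5 and -1.06 for IL1A. Then followed -1.05 for TOP2A, -1.03 for EIF4EBP1, -1.01 for SLC1A5, -1.01 for CENPF, -0.92 for CDK1, -0.88 for PRKDC, -0.87 for TAPBP, -0.85 for MRPL3, -0.85 for SLC38A2, -0.83 for FDPS, -0.82 for GARS and -0.76 for GINS2. The value of TAPBP depends on DMSO libraries that were both listed at 0, for a symbol with several entries. In the next group were -0.76 for COX7A2L, -0.71 for MKI67, -0.70 for ATP5G1, -0.70 for CDC6, -0.67 for DUSP6, -0.63 for CAT, -0.63 for TP53I3, -0.61 for PLAT, -0.61 for MVK, -0.61 for ASNS, -0.59 for ITGA6 and -0.58 for LMNB1. Smaller negative values were -0.57 for HNRNPA1, -0.56 for SARS, -0.56 for CSF1R, -0.54 for CCNB1, -0.52 for CXCL1, -0.50 for TP63, -0.50 for UHRF1, -0.47 for AARS, -0.47 for SRSF1, -0.46 for CD44, -0.43 for ATR and -0.39 for XRCC5. The last negative values were -0.36 for IFNAR1, -0.32 for TIGAR, -0.29 for FDXR, -0.29 for BID, -0.28 for XRCC6, -0.27 for RNASEH2B, -0.27 for ATF4 and -0.26 for BCL2L2.

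These values share the libraries of the comparisons above and are no separate evidence for them. No group had enough libraries for a single library to be tested against its group.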

How the results depend on the processing

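The count of 6546 loci called in AZD6738+IR against IR stayed within 1.5 times under a pseudocount of 0.1, no filter, either rescaling, no variance trend, summed entries and a fit of the 4 irradiated libraries alone. With a mean of at least 5 FPKM fewer loci were tested, and 4124 passed, 1280 of them higher. Leaving out 1 library at a time gave 4892 to 6342 calls, with 1849 to 2434 higher and 3043 to 4005 lower, 28 interferon-stimulated genes in each case, and 3157 to 4620 loci in the interaction. Of the calls, 38.3% were higher, against 42.1% under quantile normalization and 46.2% with totals that leave out the 4 most abundant loci, a scaling chosen after seeing the data. Genes that were not called changed the sign of their log2 change in BAX (0.06 with quantile normalization, 0.01 with libraries centred on their median, 0.06 with totals without the 4 most abundant loci, -0.02 to 0.01 without single libraries, changing sign without AZD6738+IR A or IR B), CDC25B (-0.04 to 0.10 without single libraries, changing sign without AZD6738+IR A), CKS2 (-0.21 to 0.03 without single libraries, changing sign without IR B), CXCL1 (-0.07 to 0.10 without single libraries, changing sign without AZD6738+IR A or IR B), CXCL2 (-0.10 to 0.11 without single libraries, changing sign without AZD6738+IR A), HLA-E (-0.05 to 2.32 without single libraries, changing sign without IR B), IFNGR2 (0.42 with entries of a symbol summed, -0.64 to 0.08 without single libraries, changing sign without IR A), IL10RB (-0.01 to 0.09 without single libraries, changing sign without IR B), PCNA (0.01 with quantile normalization, 0.01 with totals without the 4 most abundant loci), RRM2B (-0.28 to 1.01 without single libraries, changing sign without AZD6738+IR A or IR A), S100A7 (0.01 with quantile normalization, -0.26 to 0.11 without single libraries, changing sign without IR A) and S100A8 (0.02 with quantile normalization); the cause was not tested. AARS, ATRIP, BID, CASP6, CD14, CHEK1, DCN, DNAJB9, FDXR, HSPA5, IRF3, KRT14, PI3, PLAU, POLA2, PRPF8, RNASEH2B, SDHD, SLC38A2, SLC6A9, SPRR2A, SSR3, TIGAR, VIM and XBP1 lost their call without at least 1 library, and ASNS, CKS2, ECT2, MB21D1 and PSMB8 gained one. Under centring on the median the call of TIGAR was lost, under the replicate block the call of CD14, SDHD and SSR3 was lost and that of ASNS was gained, under no variance trend the call of CD14 was lost, under a fit of the irradiated libraries alone the call of ATRIP, CASP6, CD14, FDXR, IRF3, PI3, PLAU, RNASEH2B, SDHD and TIGAR was lost, under pseudocount 0.1 the call of DCN was lost, under quantile normalization the call of FDXR, RNASEH2B, SLC38A2 and TIGAR was lost and that of PSMB8 was gained, under totals without the 4 most abundant loci the call of CASP6, FDXR, RNASEH2B and TIGAR was lost and that of MB21D1 and NFKB1 was gained. With the library letter as a replicate block 6524 loci, 28 interferon-stimulated genes and 4445 loci in the interaction passed. Deviations of same-letter libraries correlated between -0.0513 and 0.158, so the letters were not taken as pairs.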

Other observations

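Gene families tabulated after the values were seen, 10 in all, add to the picture and carry no test of their own. Guanylate-binding proteins, antimicrobial GTPases induced by interferon, were higher in 3 of 3 tested genes, and GBP1 was at 153 and 158 FPKM in AZD6738+IR, against 8.23 and 8.62 FPKM in IR. All 3 tested APOL genes were higher, with APOL1 at 20.2 and 16.6 FPKM in AZD6738+IR, against 0.673 and 0.613 FPKM in IR. APOL1, APOL3, GBP5 and GBP6 averaged under 1 FPKM over the other 6 libraries and were admitted through the AZD6738+IR libraries. Of 7 PARP genes, 5 were higher and 1 lower. TRIM genes were mixed, with 7 higher and 4 lower of 23, and TRIM21, an intracellular antibody receptor, was at 104 and 101 FPKM in AZD6738+IR, against 12.1 and 12.8 FPKM in IR. Families were taken by the start of the symbol. Of 38 genes whose symbol starts with EIF, which hold translation initiation factors but also regulators and an antisense RNA, 28 were lower and none higher. Of 7 genes whose symbol starts with EEF, elongation factors and the kinase EEF2K, 6 were lower and none higher, and EEF2 was at 526 and 505 FPKM in AZD6738+IR, against 1267 and 1278 FPKM in IR. Small nucleolar RNA host genes were lower in 8 and higher in 1 of 12. Small nucleolar RNAs were mostly not called, with 14 higher and 22 lower of 175, and ZNF genes had 66 higher and 24 lower of 215. Replication-independent histones were higher in 2 and lower in 5 of 8.

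Loci without a gene symbol held some of the most extreme values of the table, and no gene name was given to them. The locus MSTRG.2379 was at 1009 and 1028 FPKM in AZD6738+IR, against 8.84 and 10.3 FPKM in IR, and at 1.88 and 1.89 FPKM in AZD6738, against 1.05 and 1.36 FPKM in DMSO. MSTRG.17979 was listed at 0 in both AZD6738+IR libraries and was at 99.2 and 90.4 FPKM in the IR libraries, and at 100.3 and 99.7 FPKM in AZD6738, against 65.2 and 104 FPKM in DMSO. MSTRG.7313 was at 38.6 and 31.9 FPKM in AZD6738+IR, listed at 0 in both IR libraries, and at 0 and 12.2 FPKM in AZD6738, against 11.5 and 10.2 FPKM in DMSO. Of 4143 such loci tested, 739 were higher and 1203 lower.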
